A study of Homo sapiens with 192 samples.

Results

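HT29 and LS174T are established human colorectal cancer (CRC) cell lines, and the libraries described here are the 6 that were made from them in 2D growth, 3 of HT29 and 3 of LS174T, out of 24 libraries in the series. The series also holds LS513 and HCT116, and every line has 3 libraries of cells in 2D growth and 3 of cells in 3D growth, which were made to relate gene expression to the response of CRC cells to extracellular ATP and adenosine. The labels of the sequenced samples name no treatment. HT29 is microsatellite stable and LS174T is microsatellite instable, and both were kept in the same medium (DMEM). Each line comes from 1 tumor, so that a difference between them is a difference between 2 lines and cannot be told apart from any feature in which the 2 tumors or their culture histories differ.

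A gene was regarded as on in a line when it reached at least 1 CPM (read counts scaled to the depth of the library, on the TMM scale) in each of the 3 libraries, and as silent when it had at most 3 counts in each of the 3 libraries. By this rule, 285 of the 58243 genes listed were on in HT29 and silent in LS174T, and 557 were on in LS174T and silent in HT29. Because 2D counts chose these genes, their 2D values are a description and carry no test, and 1 member of each list that lies on a sex chromosome was counted and is not described.

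The colonic epithelium renews from crypt stem cells that depend on Wnt signaling and mature into absorptive cells, mucus-secreting goblet cells and hormone-secreting enteroendocrine cells. CRC lines keep some of these programs and lose others. They can also express genes that normally belong to the stomach, the embryo or the germ line. A gene can be shut in a cell line by loss of its DNA, by closed or methylated chromatin or by lack of an activator, and RNA levels do not separate these states. Besides, the lines are not mixtures of labelled cell types, so that fewer expressing cells and less RNA per cell cannot be told apart in these bulk samples.

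The 6 libraries held between 18723942 and 31484814 counts, the lowest being HT29 replicate 3, and the other 5 held at least 30345339. On the TMM scale 3 counts corresponded to between 0.0853 and 0.0897 CPM in LS174T and to between 0.103 and 0.164 CPM in HT29. Hence silent means not detected above this level, and does not mean that no read was counted. Not all of the 13 markers for intestinal epithelial origin were present in both lines, and their differences in either direction are given below. GPA33 averaged 0.359 CPM in HT29 and 232 CPM in LS174T, whereas CDH1 averaged 424 and 22.8 CPM. Others were at similar levels in both lines. EPCAM, an epithelial adhesion molecule, averaged 452 CPM in HT29 and 487 CPM in LS174T, and the galectin LGALS4 averaged 353 and 402 CPM. Among 17 markers of other cell types, 8 were at or under 3 counts in all 6 libraries. None of the 17 exceeded 10 CPM on average in either line, CD14 at 6.11 CPM and CD68 at 5.97 CPM in HT29 being the highest.

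**Figure D1:**
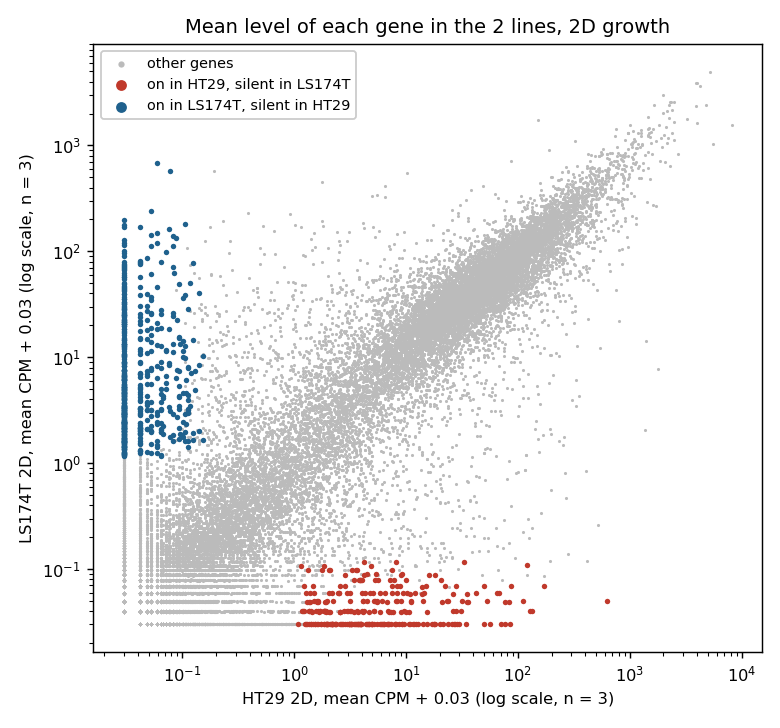
Mean level of each gene in HT29 (x axis) and LS174T (y axis) grown in 2D, in CPM plus 0.03 on log scales, with 3 libraries per line and 1 point per gene. The 285 genes on in HT29 and silent in LS174T lie along the bottom edge (red) and the 557 genes with the opposite state along the left edge (blue).

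The genes that were on in HT29 and silent in LS174T comprised 236 protein-coding genes, 14 lincRNAs, 9 antisense RNAs and members of smaller classes. They had a median level of 4.28 CPM in HT29, and 70 reached 10 CPM. The opposite list comprised 393 protein-coding genes, 69 lincRNAs, 25 antisense RNAs and 24 transcribed unprocessed pseudogenes. It had a median of 4.60 CPM in LS174T, and 180 members reached 10 CPM. Of all genes on in the line, these lists took 2.23% of 12806 genes in HT29 and 4.19% of 13291 genes in LS174T, and 11850 genes were on in both lines. A total of 115 of the 285 genes had 0 counts in every LS174T library, and 320 of the 557 had 0 counts in every HT29 library. Just inside the on threshold were ERFE in HT29 (1.06, 1.07 and 1.04 CPM) and CLEC4F in LS174T (1.14, 1.25 and 1.01 CPM). Just outside it were C1GALT1C1L in HT29 (0.891, 0.791 and 1.31 CPM) and KRT4 in LS174T (1.31, 0.654 and 1.04 CPM). Beyond the silent threshold, 177 genes on in HT29 and 232 genes on in LS174T had a highest count of 4 to 10 in the other line.

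Per kilobase of exon, the highest protein-coding members on in HT29 were ANXA10 and TGM2. ANXA10, an annexin expressed in the gastric mucosa, was at 167, 222 and 128 CPM in the 3 HT29 libraries and had 2, 0 and 2 counts in those of LS174T. TGM2, a transglutaminase that cross-links proteins, had the highest CPM of the list, with 705, 621 and 547 CPM against 1, 1 and 0 counts. The libraries of the lines did not overlap for either gene, as the rule requires.

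Several other highly expressed HT29 members encode surface proteins and channels. CACNG4, an auxiliary subunit of calcium channels and glutamate receptors, was at 86.5, 92.8 and 76.9 CPM, whereas LS174T had 0 counts in every library. Measured against a floor of 3 counts per library, CACNG4 was therefore at least 972-fold higher in HT29. HCAR1, the lactate receptor, was at 142, 121 and 136 CPM against 1, 0 and 0 counts. Its neighbors HCAR2 and HCAR3, receptors for hydroxylated fatty acids, stayed under 6 CPM in HT29 and were at 0 counts in LS174T. HCAR2 and HCAR3 are close copies, and reads that aligned more than once had been removed, so that their split is uncertain. ABCG2, a drug efflux pump, was at 83.7, 58.1 and 88.0 CPM against 0, 1 and 1 counts.

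Enzymes formed a further group among the 15 highest protein-coding members. QPCT, which forms N-terminal pyroglutamate, was at 57.2, 48.2 and 61.8 CPM, and NNMT, which methylates nicotinamide, at 60.0, 37.8 and 51.7 CPM. Both had 0 counts in LS174T, and were at least 633-fold and 567-fold higher in HT29. A4GALT, which makes the P1 and Pk glycolipid antigens, was at 74.9, 97.4 and 79.1 CPM against 0, 2 and 0 counts. GALNT12, which starts O-glycans on mucins, was at 49.8, 49.5 and 50.9 CPM against 1, 1 and 2 counts. MMP7, a matrix protease secreted by epithelial cells, was at 23.6, 45.8 and 32.6 CPM against 0 counts throughout, the second HT29 library being the highest. SMARCA1, an ISWI chromatin remodeler, was at 68.4, 63.4 and 63.4 CPM against 1, 0 and 2 counts. The cell cycle regulator RGCC averaged 28.5 CPM and the actin-binding protein ABLIM3 averaged 120 CPM.

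The other HT29 members from the functional lists, 23 lists of genes with a shared role, included plasma proteins, HOX genes and mucins. RBP4, the carrier of retinol in blood, was at 7.37, 13.3 and 6.68 CPM, SERPINA5, a protease inhibitor, at 12.3, 11.2 and 8.65 CPM, and APOC1, an apolipoprotein that shares 43.2% of its exonic bases with a gene on the same strand, at 3.46, 2.89 and 3.23 CPM. MUC1 (3.84, 2.03 and 5.15 CPM) and MUC16 (5.86, 3.23 and 6.46 CPM), both mucins anchored in the membrane, had a total of 0 and 1 counts in LS174T. MEIS2, a cofactor of HOX proteins, was at 53.3, 44.2 and 60.3 CPM. The nuclear receptor NR5A2, the carbonic anhydrase CA2, the glycosyltransferase B3GNT7 and the monocyte marker CD14 each stayed under 8 CPM, and so did CYP24A1 on average, the enzyme that degrades active vitamin D. Members outside the lists, chosen after their values were seen, were CGAS, the cytosolic DNA sensor (16.6, 20.3 and 17.8 CPM against 0 counts), DAPK1, a kinase of cell death (130, 134 and 123 CPM against 1, 0 and 0 counts), and the Hedgehog effectors GLI1 and GLI2 (means of 3.99 and 8.94 CPM).

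In LS174T, the protein-coding members highest per kilobase of exon were PIGR, GAGE2A, ID3, HBE1 and MUC6. GAGE2A and HBE1 are described below with the genes of the germ line and of embryonic blood. PIGR, the receptor that carries IgA and IgM across the epithelium, was at 514, 577 and 642 CPM in LS174T and had 1, 0 and 2 counts in HT29. MUC6, a gel-forming mucin of gastric glands, was the member with the highest CPM, with 708, 642 and 691 CPM against 0, 1 and 1 counts. TBXT (brachyury), the transcription factor of mesoderm and notochord, was at 80.6, 74.3 and 76.6 CPM against 1, 0 and 0 counts. ID3, an inhibitor of basic helix-loop-helix factors, was at 190, 221 and 137 CPM against 3, 2 and 1 counts. CCND2, a D-type cyclin, was at 199, 193 and 196 CPM, and with 0 counts in HT29 it was at least 1589-fold higher in LS174T. OLFM2, a secreted olfactomedin, was at 170, 168 and 169 CPM and at least 1367-fold higher, again with 0 counts in HT29.

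**Figure D2:**
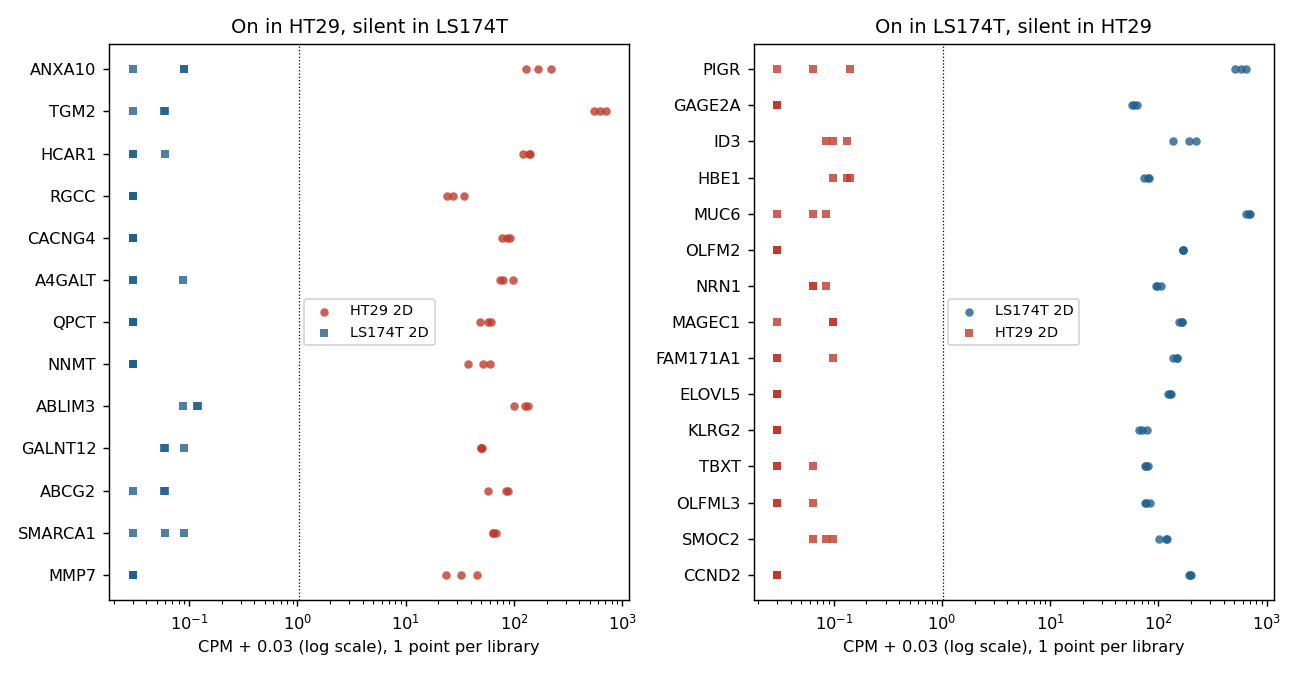
Level of 13 of the 15 protein-coding members with the highest CPM per kilobase of exon on in HT29 and of the 15 on in LS174T, in CPM plus 0.03 on a log scale, with 1 point per library (circles, the line in which the gene is on and squares, the other line) and a dotted line at the threshold of 1 CPM. Every circle lies at 20 CPM or more and every square lies below 0.2 CPM.

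Secreted and surface proteins were also found among the LS174T members. SMOC2, a matrix protein of crypt stem cells, was at 100, 118 and 119 CPM against 2, 1 and 1 counts. OLFM4, a secreted marker of intestinal stem cells, was at 39.6, 99.8 and 86.2 CPM against 1, 0 and 0 counts, replicate 1 being lower than the others. NRN1, a neuritin anchored in the membrane, was at 106, 94.5 and 96.9 CPM against 1 count in each HT29 library. FAM171A1, OLFML3 and KLRG2 averaged 143, 78.6 and 71.9 CPM. ELOVL5, an enzyme that lengthens polyunsaturated fatty acids, was at 123, 126 and 131 CPM, and with 0 counts in HT29 was at least 1026-fold higher in LS174T. KIT, the stem cell factor receptor, was chosen after its values were seen and was at 42.6, 46.1 and 47.7 CPM against 0 counts.

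Genes of the germ line and of embryonic blood were on in LS174T. MAGEC1, a cancer testis antigen, was at 166, 153 and 166 CPM against 2, 2 and 0 counts. GAGE2A (56.9, 63.8 and 59.4 CPM) and GAGE1 (37.6, 42.8 and 38.6 CPM), antigens of the same class, had 0 counts in HT29. GAGE genes are near-identical copies and GAGE2A and GAGE1 share exons, so that reads cannot be assigned to a given copy with certainty. HBE1, the embryonic globin, was at 80.1, 73.2 and 81.2 CPM against 3, 2 and 2 counts, and HBG2, a fetal globin, at 8.55, 9.07 and 9.09 CPM against 3, 0 and 0. HBE1 shares 90.0% of its exonic bases and HBG2 57.3% with other genes on the same strand, so that neither value belongs with certainty to the gene named. LIN28B, an RNA-binding protein of embryonic cells, averaged 1.90 CPM.

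The remaining LS174T members of the lists were at lower levels. The cytokines IL32 (44.9, 34.7 and 40.8 CPM) and IL33 (16.5, 14.1 and 15.3 CPM) had up to 3 and 0 counts per library in HT29. MTTP, which loads lipid onto lipoproteins, was at 44.1, 52.7 and 51.8 CPM, and FABP1, a fatty acid binding protein of absorptive cells, at 3.29, 6.42 and 9.03 CPM. Further members were SPATA18 (10.8, 11.8 and 12.9 CPM), the decoy receptor TNFRSF10C (4.36, 4.46 and 4.26 CPM, with 39.3% of its exonic bases shared), EDA2R (1.82, 2.22 and 2.34 CPM) and TRIM22 (1.70, 2.36 and 2.87 CPM). The sulfotransferase SULT1C2 averaged 13 CPM, the transcription factor ZIC2 18.4 CPM and the ephrin receptor EPHA4 4.26 CPM. CASP1, HOXD8, APCDD1, SPARC and GSTM3 averaged between 1.15 and 2.79 CPM. P2RX5, an ATP-gated channel, was at 14.2, 11.4 and 12.9 CPM against 3, 2 and 1 counts, and 41.6% of its exonic bases are shared with a readthrough gene on the same strand.

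Among non-coding members, HOTAIR, the antisense RNA of the HOXC cluster, was at 25.1, 30.6 and 27.3 CPM in HT29 against 0, 1 and 3 counts. KRT8P36, a processed pseudogene of KRT8, was at 26.7, 36.6 and 29.7 CPM. KRT8 itself averaged 8200 CPM in HT29 and 1543 CPM in LS174T, and whether reads of KRT8 were assigned to this pseudogene was not tested. In LS174T, PPIAP46, a processed pseudogene of PPIA, was at 159, 166 and 181 CPM, and the lincRNA AL713998.1 was at 106, 140 and 111 CPM. AL713998.1 had 0 counts in every HT29 library and PPIAP46 had 1 count in all.

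Members of some gene families lay side by side. Runs of at least 4 protein-coding members of the same direction, with gaps of at most 500 kb, were searched after the values were seen, and 6 were found. The run with most members was on chromosome 19 (chr19:36383120-37719790), where 11 of 28 protein-coding genes, 10 of them zinc finger genes, were on in LS174T and silent in HT29. Their levels ranged from 1.85 to 18.6 CPM, and HT29 had 7 counts over all 11 genes and 3 libraries. Over the genome, 33 zinc finger genes with a ZNF or ZFP symbol were on in LS174T and silent in HT29 and 7 had the opposite state, out of 411 on in at least 1 line. On chromosome 19 the numbers were 28 and 3 out of 194. Over all 14247 genes on in at least 1 line, 3.91% were on in LS174T and silent in HT29, and 2% had the opposite state. These genes mostly encode DNA-binding repressors, and many are recent copies of each other.

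The protocadherin beta genes, which encode neuronal adhesion proteins from single-exon genes in a cluster on chromosome 5, formed the next run. A total of 9 of the 13 protein-coding genes in chr5:141094578-141218979 were on in LS174T and silent in HT29, and none was on in both lines. PCDHB2 was the highest, with 21.2, 22.3 and 20.6 CPM against 0 counts, followed by PCDHB13 with 9.21, 12.4 and 10.3 CPM against 0, 1 and 0 counts. PCDHB8 was at 6.78, 6.42 and 6.07 CPM against 0 counts, and PCDHB10 was the lowest at 1.23, 1.19 and 1.18 CPM.

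The promoters of PCDHB2, PCDHB8 and PCDHB13 are shown because these neighbors were on and silent together. Each covers 250 bases before to 50 after the start of the RefSeq gene on the plus strand (GRCh38.p14), at chr5:141094365-141094664, chr5:141177540-141177839 and chr5:141213669-141213968. The capitals mark GGTGGCGCTGCA, a word of 12 letters found in 7 of the 8 member promoters that the RefSeq table holds. It was chosen as a word present in most of them, tied with 1 other. Searched on both strands, it was found in 12 of 14892 promoters of protein-coding genes (0.0806%), 10 of which were PCDHB promoters, out of 14 in the table. The word therefore also occurs in PCDHB promoters outside the members and is not particular to the on and silent genes. A match is a description of the letters and not of a bound site.
PCDHB2: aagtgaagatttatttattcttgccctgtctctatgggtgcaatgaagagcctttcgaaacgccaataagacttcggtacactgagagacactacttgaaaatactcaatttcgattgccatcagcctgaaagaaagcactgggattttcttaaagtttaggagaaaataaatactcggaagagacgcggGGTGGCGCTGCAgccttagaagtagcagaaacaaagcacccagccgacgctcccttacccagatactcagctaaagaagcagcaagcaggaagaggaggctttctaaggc
PCDHB8: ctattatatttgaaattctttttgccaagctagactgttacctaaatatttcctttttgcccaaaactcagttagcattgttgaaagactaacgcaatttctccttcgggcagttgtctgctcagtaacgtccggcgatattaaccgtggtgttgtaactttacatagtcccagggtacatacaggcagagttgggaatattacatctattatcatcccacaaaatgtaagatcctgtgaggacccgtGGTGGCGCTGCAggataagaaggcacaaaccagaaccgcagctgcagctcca
PCDHB13: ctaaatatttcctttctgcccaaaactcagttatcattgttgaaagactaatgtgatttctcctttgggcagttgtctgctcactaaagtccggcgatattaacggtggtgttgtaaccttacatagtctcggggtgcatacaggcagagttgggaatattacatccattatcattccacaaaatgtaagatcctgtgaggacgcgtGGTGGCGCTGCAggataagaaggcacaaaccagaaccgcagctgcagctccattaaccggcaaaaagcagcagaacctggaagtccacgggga

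The other runs on in LS174T lay on chromosomes 4, 11 and 17. On chromosome 4 they were the glucuronosyltransferases UGT2B17, UGT2B15, UGT2B10 and UGT2A3, which conjugate steroids and drugs and ranged from 1.88 to 2.99 CPM. These enzymes are close copies, and their individual values are uncertain. On chromosome 17 they were the myosin heavy chains MYH13, MYH4, MYH1 and MYH2 of eye and limb muscle. MYH13 reached 32.8, 27.5 and 30.3 CPM against 0, 0 and 1 counts, and MYH1 reached 3.68, 3.69 and 3.79 CPM against 0, 2 and 0 counts. On chromosome 11 they were the globins HBG2 and HBE1 with OR51B4, TRIM22 and OR56A3. These were 5 of the 31 protein-coding genes in the span, in which 3 genes were on in both lines. HBE1 and HBG2 share exonic bases on the same strand, so that they are not independent members. The only run on in HT29 was in the HOXC cluster on chromosome 12 (chr12:53938765-54035358), with HOXC13, HOXC8, HOXC5 and the overlapping AC012531.2, at 2.02 to 6.32 CPM. These were 4 of the 10 protein-coding genes in the span.

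By chromosome, members on in LS174T made up 3.91% of the 14247 genes that were on in at least 1 of the lines. The share was 14% on chromosome 21 (21 of 150), 11.8% on chromosome 13 (31 of 263), 6.04% on chromosome 19 (65 of 1076) and 1.28% on chromosome 20 (5 of 390). Of the members on chromosomes 21 and 13, 8 and 16 are protein coding. The members on in HT29 made up 2.00% of all, with 3.85% on chromosome 20 (15 of 390).

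**Figure D3:**
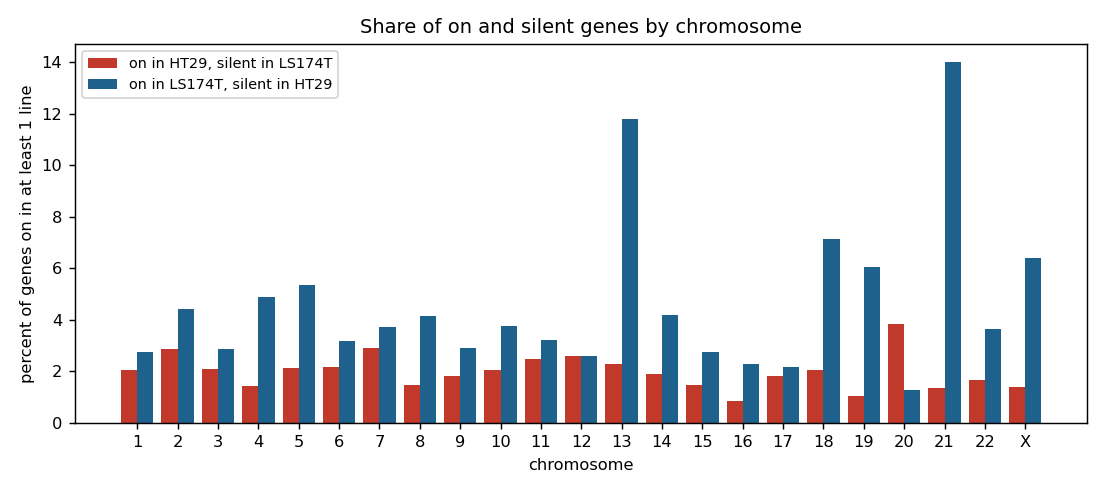
Members as a percent of the genes on in at least 1 of the lines (y axis) by chromosome (x axis), in red for genes on in HT29 and silent in LS174T and in blue for the opposite state. The blue bars of chromosomes 21 and 13 reach 14% and 11.8%, against 3.91% over all chromosomes.

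The 3D libraries, which the rule did not use, were examined for the state of each member. Of the 285 genes, 217 (76.1%) were again on in HT29 and silent in LS174T in 3D, and of the 557 genes, 410 (73.6%) were again on in LS174T and silent in HT29. No member was on in 3D in the line where it had been silent in 2D, or silent in the line where it had been on. Of the 285, 31 fell below 1 CPM in some HT29 library and 40 exceeded 3 counts in some LS174T library. For the 557 these numbers were 39 and 110. In the 3D comparison, all 285 and all 557 were called in the direction of the 2D state by edgeR's quasi-likelihood test, where a call needed a Benjamini-Hochberg adjusted p below 0.05 and an absolute log2 fold change of 1 or more. The same call was made for 17.1% of all 19387 tested genes toward HT29 and for 20.3% toward LS174T, which is 37.4% in either direction. The members were chosen for an extreme 2D difference in the same lines, which makes these calls in 3D likely in advance. The share over all tested genes, which were not chosen in this way, is therefore no like comparison. The labels do not say that the libraries came from separate cultures, so that p-values measure only the spread between these samples, and an exact permutation test of 3 against 3 libraries could not go below p = 0.1. Each line is the same cells in 2D and 3D, so that this is a repeat in other libraries of the 2 lines, not in other tumors.

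The sums of the silent line in 2D are capped by the rule that chose the genes, so that higher sums in 3D follow in part from the choice and no change with growth is read from them. Summed over the members on in LS174T, the HT29 libraries held 8.8, 8.2 and 9.8 CPM in 2D and 33.0, 27.4 and 29.2 CPM in 3D. Summed over the members on in HT29, the LS174T libraries held 4.6, 5.0 and 4.9 CPM in 2D and 8.4, 10.5 and 9.6 CPM in 3D. The counts that made up the 3D sums of HT29 were spread unevenly over the genes. The calcium channel CACNA1H, chosen after its values were seen, had 2, 1 and 0 counts in HT29 in 2D and 48, 28 and 39 in 3D. The transcription factor TOX, chosen in the same way, had 0, 1 and 1 counts in 2D and 46, 23 and 34 in 3D. The rule caps the 2D counts of both genes as well, and no change with growth is read from them. In contrast, MUC6 had 1 count in each HT29 library in 3D, although it was far higher in LS174T than either gene. In 2D and 3D alike, LS513 and HCT116 held both sets at levels between those of HT29 and LS174T. The choice of genes by their extremes in HT29 and LS174T favors this order, and nothing about LS513 or HCT116 is read from it.

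**Figure D4:**
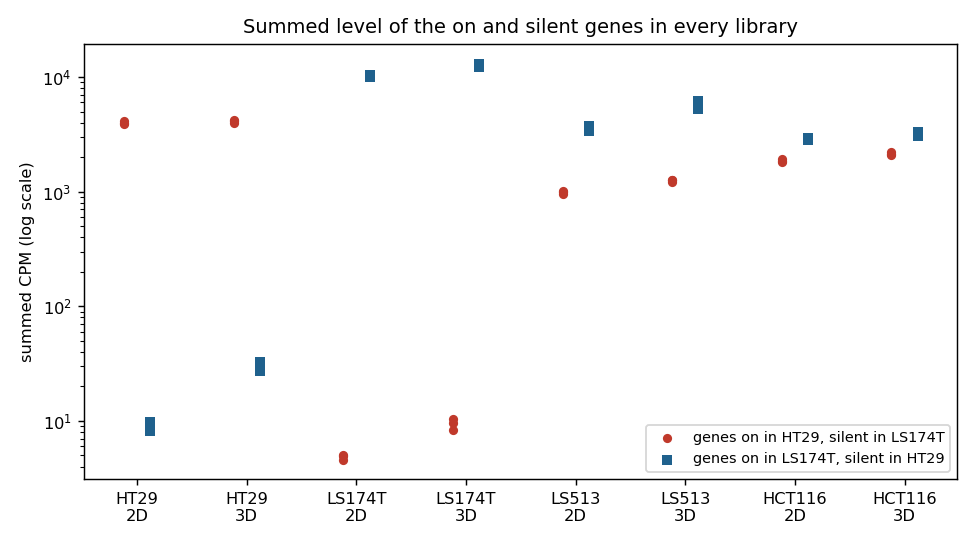
Summed CPM (log scale) of the genes on in HT29 and silent in LS174T (red circles) and of the genes with the opposite state (blue squares) in each of the 24 libraries, grouped by line and growth condition, with 1 point per library. The silent sums are at 4.6 to 9.8 CPM in 2D and at 8.4 to 33.0 CPM in 3D, whereas the lowest sum in LS513 and HCT116 is 963.5 CPM.

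The other 2 lines show which of the states were particular to HT29 or LS174T within this panel. Of the 285 genes on in HT29 and silent in LS174T, 50 were on in both LS513 and HCT116 in 2D, and 59 were silent in both. HCT116 had 131 of them on and LS513 had 82. QPCT, NNMT, HCAR1 and CGAS were silent in both other lines, whereas ABLIM3, GALNT12 and ABCG2 were on in both. Of the 557 genes on in LS174T, 57 were on in both other lines and 203 were silent in both. TBXT, MME, KIT and GAGE2A were silent in both, and ID3, FAM171A1 and ELOVL5 were on in both. HLTF, a helicase-like factor chosen after its values were seen, was at 1.55, 2.10 and 1.95 CPM in LS174T and on in LS513 and HCT116, with 0 counts in every HT29 library.

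Over all genes, 3260 of 19387 tested were called higher in HT29 in 2D (16.8%) and 3966 were called higher in LS174T (20.5%) by edgeR's quasi-likelihood test. Hence, a called share for a list of genes near 37.3% in both directions together is the background. The median log2 fold change (HT29 minus LS174T) of all tested genes was -0.02 with TMM and -0.22 when libraries were scaled by their totals only, a shift of the center that moves every gene alike. The split of calls was then 2751 higher in HT29 and 4621 higher in LS174T. Medians of lists are given below on the TMM scale beside the value of -0.02, or of 0 with genes at 0 counts in a line set at their bound against the floor. The lists were chosen with earlier results of these data known, and their counts are a description. They include the on and silent genes, whose 2D calls follow from the rule and which the plot of calls by list shows in the darker colors.

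Outside the on and silent genes, called genes were ranked by fold change among those with at least 10 CPM in the higher line and more than 3 counts in each library of the lower line, and the 5 largest in each direction were taken. Genes with fewer counts in the lower line, such as HOXB9 and PAGE1 below, were not ranked here, although the fitted change of HOXB9 exceeded that of LYZ and the fitted change of PAGE1 exceeded that of GPA33 in size. CRABP2, a carrier of retinoic acid, was at 535, 505 and 526 CPM in HT29 and 0.209, 0.313 and 0.178 CPM in LS174T (log2 fold change 11.1 ± 0.24 SE, adjusted p = 8.77e-21). By this ranking it was followed toward HT29 by lysozyme (LYZ, means of 1373 and 2.05 CPM), AMIGO2, IGFBP6 and the enterocyte keratin KRT20. GPA33, an antigen of the intestinal surface, was at 0.206, 0.378 and 0.493 CPM in HT29 and 220, 236 and 241 CPM in LS174T (log2 fold change -9.39 ± 0.19 SE, adjusted p = 6.24e-21). By this ranking it was followed toward LS174T by the phosphatase PTPRU, the Wnt inhibitor NKD1, the lipid transporter ABCA3 and the adhesion receptor ADGRB1. Each of these 10 genes had at least 4 counts in every library of the lower line.

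Markers of intestinal identity differed in both directions. Of 13 tested, 4 were called higher in HT29 and 7 higher in LS174T (median log2 fold change -1.15). The transcription factors CDX1 and CDX2 averaged 108 and 76.2 CPM in LS174T and 0.462 and 1.43 CPM in HT29. CDH17, an intestinal cadherin, averaged 165 and 4.22 CPM in the same order. On the other hand, E-cadherin (CDH1) was at 401, 426 and 444 CPM in HT29 and 20.9, 23.5 and 23.9 CPM in LS174T (log2 fold change 4.22 ± 0.15 SE, adjusted p = 1.93e-17). The keratins KRT8, KRT18 and KRT19 were also called higher in HT29. Of 9 tested markers of other cell types, 7 were called higher in HT29 (4 with scaling by totals or without LS174T replicate 2) and 1 higher in LS174T (median 2.81). COL1A1, the fibroblast collagen, averaged 0.972 CPM in HT29, and PDGFRB, the marker of pericytes, averaged 0.333 CPM in LS174T.

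Mucins and goblet cell genes were called higher in LS174T for 18 of 30 tested and higher in HT29 for 9 (median -2.87, or -2.70 with genes at their bound). The secreted mucins MUC2, MUC5AC and MUC5B averaged 50.9, 137 and 130 CPM in LS174T and 0.675, 5.23 and 1.38 CPM in HT29. The goblet cell products TFF3, AGR2 and REG4 were called higher in LS174T as well. Of the mucins anchored in the membrane, MUC1, MUC4, MUC12, MUC16 and MUC20 were called higher in HT29, whereas MUC3A, MUC13 and MUC17 were called higher in LS174T. Also called higher in HT29 were the goblet cell factors SPDEF and CREB3L1, at 46.3 and 26 CPM against 2.45 and 1.39 CPM. Absorptive cell genes were split, with 6 of 19 called higher in HT29, led by KRT20 and CEACAM1, and 7 higher in LS174T (median 0). The glucose transporter SLC5A1 was at 7.82, 5.37 and 6.57 CPM in HT29 and 15.9, 14.7 and 18.2 CPM in LS174T (log2 fold change -1.30 ± 0.18 SE, adjusted p = 6.24e-07).

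Wnt targets and crypt stem genes were called higher in LS174T for 11 of 24 and higher in HT29 for 4 (median -1.08, or -0.34 with genes at their bound). The receptor EPHB2 was at 421, 461 and 461 CPM in LS174T against 1.58, 2.24 and 1.42 CPM in HT29, and ASCL2, a stem cell factor, averaged 111 and 1.51 CPM. LGR5 and AXIN2 were called higher in LS174T by smaller amounts, whereas the ligand WNT11 was at 131, 126 and 122 CPM in HT29 against 0.179, 0.256 and 0.0592 CPM. Among 12 tested enteroendocrine genes, 1 was called higher in HT29 and 4 higher in LS174T (median -0.99, or -0.36 with genes at their bound). The call toward HT29 was SST, with 0, 0.0344 and 0.164 CPM, at or under 3 counts in every library, and it was lost with DESeq2's Wald test and on leaving out any of 5 of the 6 libraries. GCG, the precursor of glucagon, was at 0.598, 0.568 and 1.36 CPM in LS174T against 0 counts in HT29.

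**Figure D5:**
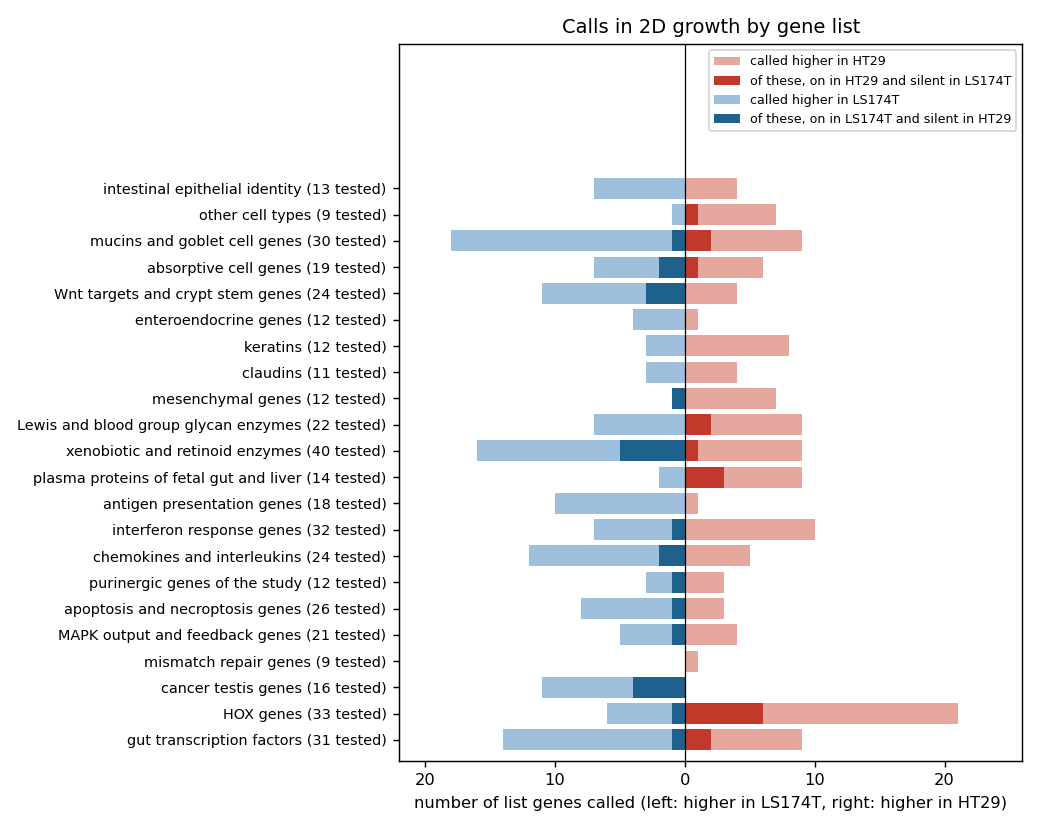
Number of genes called (x axis) in each of 22 lists (y axis, with the number tested), higher in LS174T to the left and higher in HT29 to the right, where the darker part of a bar is the on and silent genes. HOX genes have the longest bar to the right (21 of 33) and mucins and goblet cell genes the longest to the left (18 of 30).

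Among structural genes, 8 of 12 keratins were called higher in HT29 and 3 higher in LS174T (median 3.17). KRT13, a keratin of stratified epithelium, was at 223, 299 and 171 CPM in HT29 and 1.85, 1.08 and 1.86 CPM in LS174T. Claudins, the strands of tight junctions, were split into 4 and 3 of 11 (median -0.50, or -0.17 with genes at their bound), with CLDN2 at 19.4, 12.6 and 13.5 CPM in HT29 and 109, 82.7 and 76.6 CPM in LS174T and CLDN9 higher in HT29. Of 12 mesenchymal genes, 7 were called higher in HT29 and 1 higher in LS174T (median 1.19). S100A4, a calcium-binding protein, averaged 1770 and 7.65 CPM in HT29 and LS174T, whereas VIM averaged 0.144 CPM in HT29, under the level of 1 CPM, and the call toward LS174T was SPARC.

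HOX genes, which set position along the body axis, were called higher in HT29 for 21 of 33 and higher in LS174T for 6 (median 3.17, or 2.6 with genes at their bound). HOXB9 was at 202, 179 and 206 CPM in HT29 and 0.119, 0.0853 and 0.0592 CPM in LS174T (log2 fold change 11.05 ± 0.20 SE, adjusted p = 1.05e-21). Those on in HT29 and silent in LS174T included HOXC13 (6.03, 7.33 and 5.58 CPM), HOXC5, HOXB2, HOXC8 and HOXD13. HOXC5 shares 59.9% of its exonic bases with other genes on the same strand. Toward LS174T, HOXA7 averaged 43.6 CPM against 8.97 CPM, and HOXD8, HOXD3, HOXD4, HOXA9 and HOXB13 were also called. Other transcription factors of the gut were called higher in HT29 for 9 of 31 and higher in LS174T for 14 (median -0.42). Among them, KLF5, a factor of crypt cells, averaged 450 CPM in HT29 and 185 CPM in LS174T.

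Enzymes and secreted proteins of the liver and gut were divided between the lines. Plasma proteins were called higher in HT29 for 9 of 14 and higher in LS174T for 2, AMBP and F10, against 1 call without HT29 replicate 2 or LS174T replicate 3 (median 4.94, or 4.91 with genes at their bound). APOH averaged 47.3 and 0.0578 CPM and SERPINA1 averaged 146 and 2.47 CPM. Xenobiotic and retinoid enzymes were called higher in HT29 for 9 of 40, among them ALDH1A3 (40.8 and 0.456 CPM), and higher in LS174T for 16, among them CYP2J2 (0.117 and 31.6 CPM) (median -0.21, or -0.14 with genes at their bound). Enzymes of Lewis and blood group glycans were called in 9 and 7 of 22 cases (median 0.18). The sialyltransferase ST3GAL1 averaged 792 CPM in HT29 against 21.8 CPM, and the Lewis fucosyltransferases FUT3 and FUT6 averaged 90.2 and 42.7 CPM in LS174T against 1.21 and 0.0571 CPM.

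Antigen presentation genes were called higher in LS174T for 10 of 18 and higher in HT29 for 1, HLA-G (median -1.35, or -0.94 with genes at their bound). NLRC5, the activator of class I genes, was at 47.9, 48.5 and 48.4 CPM in LS174T and 0.103, 0.172 and 0.329 CPM in HT29, and the peptide transporter TAP1 averaged 82.9 and 2.45 CPM. B2M, the light chain of class I molecules, averaged 282 CPM in HT29 and 296 CPM in LS174T and was not called. Interferon response genes were called in 10 and 7 of 32 cases (median 0.17, or 0.12 with genes at their bound), with BST2 higher in HT29 (74.7 and 7.20 CPM) and IFITM3 higher in LS174T (2.52 and 114 CPM). Chemokines and interleukins were called in 5 and 12 of 24 cases (median -1.07), with IL1RN higher in HT29 and CXCL16 higher in LS174T.

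Genes of apoptosis and necroptosis were called in 3 and 8 of 26 cases (median -0.05, or 0.02 with genes at their bound). BAX, which opens mitochondria, averaged 160 CPM in HT29 and 33.0 CPM in LS174T, whereas the survival factor BCL2 averaged 1.26 and 20.2 CPM. CASP8, RIPK1, RIPK3 and MLKL were not called.

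MAPK output genes were called higher in HT29 for 4 of 21, or 2 with scaling by totals, and higher in LS174T for 5 (median 0.39), with EPHA2 higher in HT29 (348 and 97.2 CPM) and the inhibitor SPRY2 higher in LS174T (16.2 and 67.6 CPM). Of 9 mismatch repair genes, only MSH3 was called on the TMM scale, whereas scaling by totals added 2 toward LS174T. MSH3 averaged 30.9 CPM in HT29 and 11.9 CPM in LS174T (median of the list -0.18). Cancer testis genes were called higher in LS174T for 11 of 16, and the other 5 were not called, 1 of which was called toward HT29 without LS174T replicate 1 (median -6.36, or -2.6 with genes at their bound). PAGE1 was at 133, 119 and 122 CPM in LS174T and 0.103, 0.172 and 0.110 CPM in HT29.

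The genes of purinergic signaling, for which the series was made, hold receptors for ATP and adenosine and the proteins that release or degrade ATP. Of 22, 12 were tested, 3 were called higher in HT29 and 3 higher in LS174T (median 0.29), and 10 did not pass the filter on low counts. P2RY2, a receptor for ATP and UTP, was at 31.4, 44.2 and 36.4 CPM in HT29 and 4.04, 3.92 and 3.91 CPM in LS174T (log2 fold change 3.24 ± 0.15 SE, adjusted p = 5.32e-15). P2RY1, a receptor for ADP, was at 2.19, 1.58 and 2.74 CPM in HT29 and 9.41, 9.86 and 9.77 CPM in LS174T, and the adenosine receptor ADORA2B averaged 9.35 and 45.7 CPM. P2RX6 (0.741 and 0.254 CPM) and ADORA2A (0.389 and 0.175 CPM) were called toward HT29 at low levels, both calls were lost without HT29 replicate 1, and ADORA2A shares 56.8% of its exonic bases with a readthrough gene. P2RX5 was the member on in LS174T and silent in HT29. NT5E, which makes adenosine from AMP, averaged 82.2 and 46.9 CPM and was not called. Its log2 fold change of 0.81, that of PANX1 (0.48) and that of P2RY11 (-0.84) were under the cutoff of 1. All of these had an adjusted p below 0.05 by edgeR's quasi-likelihood test. P2RY11 shares 54.3% of its exonic bases with other genes on the same strand. P2RX4, P2RX7 and ADORA1 were not called and had an adjusted p above 0.05.

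The difference between lines was larger or smaller in 3D for some genes, as tested by the interaction of line and growth condition. Of the on and silent genes, 3 of the 285 on in HT29 and 19 of the 557 on in LS174T passed an adjusted p of 0.05 with a log2 difference of at least 1. No change with growth is read from these genes, because the rule caps their 2D counts in the silent line. Of the 61 tested named genes outside the on and silent genes, 13 passed an adjusted p of 0.05 with a log2 difference of at least 1. The share over all tested genes was 3.0%. Most of these genes were named for a large or clear difference in 2D, which by itself favors a smaller difference in 3D, and the absolute difference was smaller in 3D for 11 of the 13. The exceptions were SLC5A1, which was higher in LS174T in 2D and higher in HT29 in 3D, and AMIGO2, whose log2 difference was 9.26 in 2D and 12.55 in 3D. AMIGO2 had 7, 7 and 8 counts in the LS174T libraries in 2D and 1, 0 and 1 counts in 3D. Its mean in HT29 was 134 CPM in 2D and 154 CPM in 3D, so that its larger difference rests on few counts in LS174T. When only the 12 libraries of HT29 and LS174T were fitted, 11 of the 13 passed, MUC5B and EPHB2 being lost.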

How the data were processed

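RNA was measured in 24 libraries of 4 CRC lines by poly(A)-selected, strand-specific sequencing. The authors trimmed the reads (Trim Galore 0.4.1), aligned them with STAR, removed reads that aligned more than once and counted genes with HTSeq 0.5.3, and deposited the counts of each technical replicate as separate files of raw read numbers. The methods name GRCh38 with Ensembl 91, whereas the submitters' notes name hg19. Coordinates and exonic lengths are from GENCODE 29 (GRCh38), matched by gene ID.

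The counts of 191 technical replicates were summed, 8 per library except 7 for HT29 3D replicate 4, whose remaining technical replicate was not analysed here, and totals ranged from 18723942 to 34277421 per library. Counts were tested with edgeR 4.0.16 (R 4.3.3) by the quasi-likelihood test with TMM scaling, the filterByExpr filter, all 24 libraries in 8 groups and Benjamini-Hochberg adjustment. DESeq2 1.42.0 was an alternative. The scripts were checked on simulated counts. On genes had at least 1 CPM in each of 3 libraries, and silent genes had at most 3 counts in each. Floors of 3 counts cover counting error only.

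Named genes were, in each direction, the 15 protein-coding on and silent genes with the highest CPM per kilobase, every on and silent member of the 23 lists, the 2 highest non-coding genes, the genes nearest to the threshold, the 5 called genes outside the on and silent genes with the largest fold changes among those with at least 10 CPM in the higher line and more than 3 counts in each library of the lower, the called list member with the smallest p, and the 22 purinergic genes. Members and lists were chosen with earlier results of these data known, and genes named outside this rule, families and runs were chosen after their values were seen. Alternatives changed the scaling, the filter, the test, the libraries fitted, the replicate block, the thresholds and the replicates included. Of the listed genes, 2 could not be matched. Some named genes and the results of 1 list are not reported here. Promoter sequences are from RefSeq (GRCh38.p14).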

Additional observations from a re-analysis of the deposited data

Results flagged for a closer look

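Among the 61 tested named genes outside the on and silent genes, 13 had a difference between HT29 and LS174T that itself differed between 2D and 3D growth. This was tested as the interaction of line and growth in edgeR's quasi-likelihood fit with Benjamini-Hochberg adjustment over all genes. The values below are the HT29 minus LS174T log2 difference in 3D minus that in 2D. SLC5A1, the intestinal glucose transporter, had 4.172 (adjusted p = 6.42e-10), averaging 6.58 CPM in HT29 and 16.3 CPM in LS174T in 2D but 28.4 and 3.88 CPM in 3D, so that the higher line changed. KRT20, the enterocyte keratin, had -3.162 (adjusted p = 1.24e-07), with LS174T at 0.817 CPM in 2D and 12.5 CPM in 3D. AMIGO2, higher in HT29 in 2D, had 3.295, with LS174T at 7, 7 and 8 counts in 2D and at 1, 0 and 1 counts in 3D.

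Toward a difference less in favor of LS174T in 3D, GPA33 had 1.774, PTPRU 2.872, NKD1 2.588, ADGRB1 2.636, MUC5B 1.215, EPHB2 1.032, CLDN2 1.613, CYP2J2 1.935, NLRC5 2.183 and IFITM3 1.529. These genes were named for their 2D difference, so that a smaller difference in 3D is favored by the choice. MUC5B and EPHB2 no longer passed when only the 12 libraries of both lines were fitted (adjusted p = 0.0766 and 0.104).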

How the results depend on the processing

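Under every alternative run, more genes were called higher in LS174T than in HT29. More genes were also on in LS174T and silent in HT29 than had the opposite state. The balance within a small list could change, as scaling by totals added mismatch repair genes toward LS174T, against the call toward HT29 on the TMM scale. List medians near the center of all genes can also change sign, since that center was -0.02 with TMM and -0.22 with totals only. Without a fold cutoff 5845 genes were called higher in HT29 and 6676 in LS174T, and with a log2 fold change of at least 2 these were 1850 and 2375, since each cutoff admits more or fewer genes by construction. With silent set at 0 counts, 115 genes were on in HT29 and silent in LS174T, and 320 had the opposite state. With silent set at 10 counts, 462 were on in HT29 and silent in LS174T. Leaving out 1 library gave 3201 to 3295 calls higher in HT29 and 3846 to 3995 higher in LS174T. It also gave 297 to 310 genes on in HT29 and silent in LS174T, and 571 to 600 with the opposite state. The genes that kept their state in 3D numbered 219 to 224 and 411 to 434 in the same way. Leaving out a library can only keep or raise the numbers of on and silent genes and of kept states, since fewer libraries have to pass. These ranges are therefore no test of the rule.

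With only the 6 libraries fitted, chemokines and interleukins called toward HT29 were 3 and not 5, and keratins called toward LS174T were 1 and not 3. Of the named genes outside the on and silent genes, 11 and not 13 passed the interaction test when 12 libraries were fitted.

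With the replicate block 3196 genes were called higher in HT29 and 3942 higher in LS174T. The labels do not say what a replicate number shares between lines, and the same-numbered libraries had correlations of 0.0977, -0.182 and 0.141 between their deviations, so that the numbers were not taken to pair the samples. Not every library correlated best with its own number. Of 61 tested named genes outside the on and silent genes, 6 crossed an adjusted p of 0.05 under an alternative. They were SST, AMBP, PANX1, P2RX6, ADORA1 and ADORA2A, and the cause was not tested. The limit of 3 counts per library for silent genes was a chosen threshold, and reads of many silent genes were still counted.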
